A study of Danio rerio with 12 samples.

Results

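The 10 genes described here are the complex I and complex IV subunits that zebrafish mitochondrial DNA encodes: MT-ND1, MT-ND2, MT-ND3, MT-ND4L, MT-ND4, MT-ND5 and MT-ND6 of complex I, and MT-CO1, MT-CO2 and MT-CO3 of complex IV. They were chosen by symbol from the 19983 genes of the deposited count table, and each matched 1 row. All 10 passed a minimum of 1 CPM in at least 1 library, as did 16807 genes in all. CPM is reads per 1000000 reads of the library, with library size scaled as given below. RNA came from whole 120-hour-old larvae of the Tg(fli:EGFP) line, whose vessels carry green fluorescent protein. The groups were larvae given iron oxide nanoparticles with a dextran coat (Dx-IONP), larvae labelled IC, and larvae labelled Control. The labels do not spell out IC, and the protocol names an iron condition that no other label accounts for. The sources used here do not give the dose or the length of exposure. Each group was a pool of 20 embryos made into 1 poly(A) library that was sequenced on 4 lanes, so n = 1 library per condition and lanes are repeat readings of it. No difference below has a replicate check, and intervals cover counting error only.

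Complex I takes electrons from NADH and complex IV passes electrons to oxygen, and both pump protons across the inner mitochondrial membrane. Their core subunits are made inside mitochondria from long RNAs that are cut into single messages, while most other subunits come from nuclear genes. In vertebrates MT-ND6 is the only protein gene read from one strand of mitochondrial DNA, and the other protein genes are read from the opposite strand. In human mitochondria the MT-ND6 message is known to carry little or no poly(A) tail, unlike the other messages.

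Library depth was 55381504 reads in Dx-IONP and 48283541 in IC, against 84043873 in Control. Marker lists of muscle, heart, neurons, photoreceptors, liver, pancreas, blood, ionocytes and epidermis each had reads in all 3 libraries. At this depth that says little about tissue content, and the pancreas list had only 566 reads in Dx-IONP. Levels are CPM after scaling by the trimmed mean of M-values (TMM). A gene was called when its levels differed by 2-fold or more and equality lay outside the 95% Clopper-Pearson interval of the ratio. Dx-IONP and IC were both set against the same Control library. In these bulk samples fewer cells of a type and less RNA per cell cannot be told apart.

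The first comparison, Dx-IONP with Control, addressed exposure to the coated particles. Most of the complex I and IV genes were lower in the Dx-IONP library, by up to 11.1-fold for MT-ND2, while MT-ND6 was 5.49-fold higher and MT-CO2 and MT-ND3 lay close to Control. Of the 10 genes, 6 were called lower, 1 higher and 3 neither. The background was 24.2% of all kept genes called lower and 20.9% called higher. The median log2 fold was -1.21 over the 10 genes and 0.03 over all kept genes.

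Among the proton-pumping, antiporter-like subunits of complex I, MT-ND2 was farthest below Control. It stood at 72.7 CPM in Dx-IONP (lanes 68.9 to 76.2), against 811 CPM in Control (797 to 826). Its log2 fold was -3.48 (counting interval -3.53 to -3.43). MT-ND4 was at 479.7 CPM in Dx-IONP and 1689 CPM in Control, a log2 fold of -1.82 (-1.84 to -1.80). MT-ND5 was at 242 CPM in Dx-IONP and 435 CPM in Control, a log2 fold of -0.85 (-0.88 to -0.82), short of the 2-fold threshold. The 3 antiporter-like subunits of the same complex thus differed in how far they lay below Control.

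MT-ND1, which sits where the membrane arm meets the quinone-binding site, was at 430.3 CPM in Dx-IONP and 1564 CPM in Control (log2 fold -1.86, -1.88 to -1.84). The small membrane subunit gene MT-ND4L was at 17.9 CPM in Dx-IONP and 90.9 CPM in Control, a log2 fold of -2.34 (-2.45 to -2.24). Another small subunit gene, MT-ND3, stood at 258 CPM in Dx-IONP (lanes 254 to 266) and 251 CPM in Control (248 to 253). Its log2 fold was 0.04 (0.01 to 0.07), and it turned to -0.33 when libraries were scaled to total reads alone, a scaling under which the median of all kept genes was -0.34.

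MT-ND6 had 255, 237, 237 and 235 reads in the 4 lanes of Dx-IONP, against 81, 90, 77 and 94 reads in the deeper Control lanes. Scaled, it stood at 20.3 CPM in Dx-IONP (lanes 19.7 to 21.5) and 3.67 CPM in Control (3.26 to 4.02). The log2 fold was 2.46 (2.29 to 2.65). It was the only one of the 10 called higher here. Its lanes did not overlap between the libraries. The same held for MT-ND3 at a log2 fold of 0.04, so lanes apart do not speak for a large difference. How many of all genes had lanes apart was not computed.

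In complex IV, MT-CO1, the subunit that holds the oxygen-reducing centre, was at 3023 CPM in Dx-IONP (lanes 2979 to 3067) and 6121 CPM in Control (6113 to 6130). Its log2 fold of -1.02 (-1.03 to -1.01) lay just past the 2-fold threshold. The Dx-IONP lanes of MT-CO1 spread more than counting error alone gives (chi-square per degree of freedom 5.30). The interval is thus too narrow even for the spread between lanes. MT-CO3, a subunit without metal centres, was at 2051 CPM in Dx-IONP and 5445 CPM in Control, a log2 fold of -1.41 (-1.42 to -1.40). MT-CO2, which takes electrons from cytochrome c, was at 7555 CPM in Dx-IONP (lanes 7499.85 to 7577) and 6760.0 CPM in Control (6738 to 6782). Its log2 fold was 0.16 (0.15 to 0.17), and -0.21 when scaled to total reads alone. MT-CO2 thus stood apart in value from the other 2 subunits of the same enzyme.

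**Figure D1:**
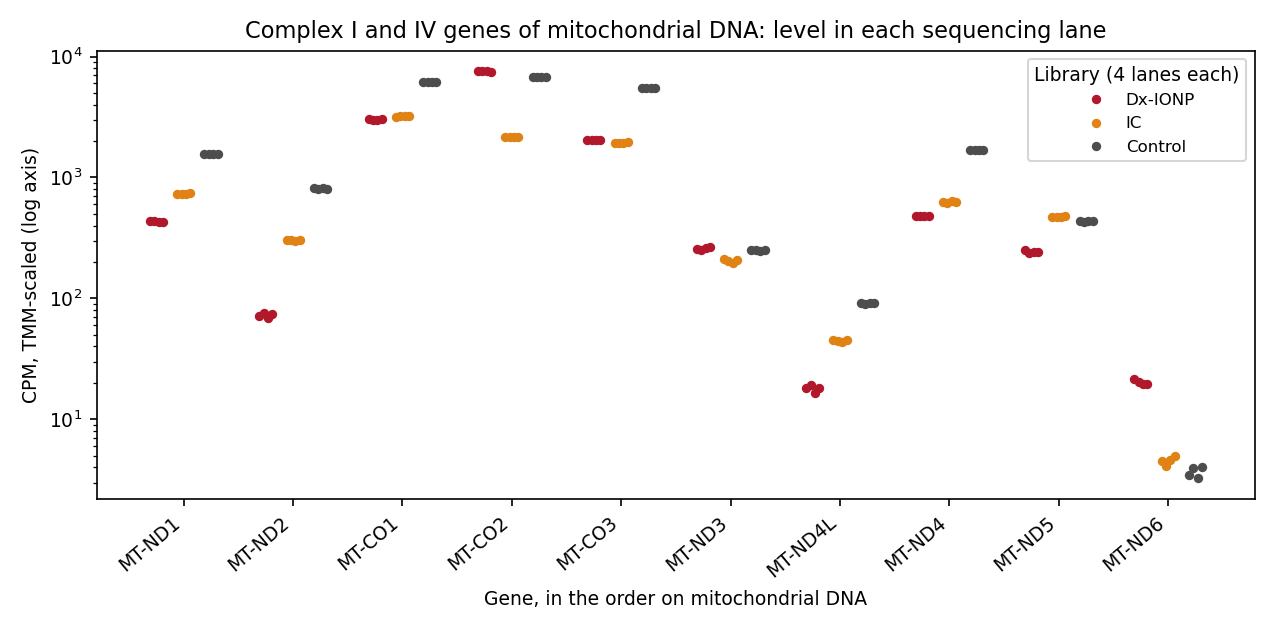
CPM (TMM-scaled, log axis) of the 10 genes in each of the 4 lanes of the Dx-IONP, IC and Control libraries, in gene order along mitochondrial DNA; each point is 1 lane. Lanes of a library lie close together, and MT-ND6 is highest in Dx-IONP (20.3 CPM against 3.67 in Control) whereas MT-ND2 is lowest there (72.7 against 811).

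Setting IC against Control asked the same of the IC larvae. Again 6 of the 10 genes were called lower, none was called higher and 4 were neither, with a background of 15.1% of kept genes called lower and 14.1% called higher. The median log2 fold was -1.05 over the 10 genes and -0.001 over all kept genes. Log2 folds ran from -1.65 to 0.30, against -3.48 to 2.46 in the comparison of Dx-IONP with Control. MT-CO2 had the lowest value of the 10, and MT-ND5 and MT-ND6 the highest.

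MT-CO2 was at 2158 CPM in IC (lanes 2150.2 to 2165) and 6760.0 CPM in Control, a log2 fold of -1.65 (-1.66 to -1.64). MT-CO3 was at 1942 CPM in IC and 5445 CPM in Control, a log2 fold of -1.49 (-1.497 to -1.478). MT-CO1 was at 3208 CPM in IC and 6121 CPM in Control, a log2 fold of -0.93 (-0.94 to -0.92), short of the threshold under TMM scaling and past it, at -1.005, when scaled to total reads (background 16.8% called lower on that scale). All 3 complex IV genes were thus below Control in IC.

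MT-ND4 was at 625 CPM in IC and 1689 CPM in Control (log2 fold -1.44, -1.45 to -1.42). MT-ND2 was at 302 CPM in IC and 811 CPM in Control (-1.42, -1.45 to -1.40). MT-ND1 was at 738 CPM in IC and 1564 CPM in Control (-1.08, -1.10 to -1.07). MT-ND4L sat on the threshold, with 44.6 CPM in IC and 90.9 CPM in Control, a log2 fold of -1.03 (-1.09 to -0.96) that became -0.9996 with DESeq2 size factors and was then not called. MT-ND3 was at 204 CPM in IC and 251 CPM in Control (-0.30, -0.33 to -0.26).

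The neighbours MT-ND5 and MT-ND6, which are read from opposite strands, were the only 2 of the 10 with a value above Control in IC. MT-ND5 was at 475 CPM in IC (lanes 471 to 482) and 435 CPM in Control (429 to 440.3), a log2 fold of 0.12 (0.10 to 0.15). MT-ND6 had 57, 51, 59 and 64 reads in the lanes of IC and stood at 4.54 CPM (4.09 to 5.01), against 3.67 CPM in Control (3.26 to 4.02). Its log2 fold was 0.30 (0.06 to 0.55). The interval included equality with total reads as the scale (-0.01 to 0.48) and without lane 3 (-0.04 to 0.53). Neither MT-ND5 nor MT-ND6 was called.

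**Figure D2:**
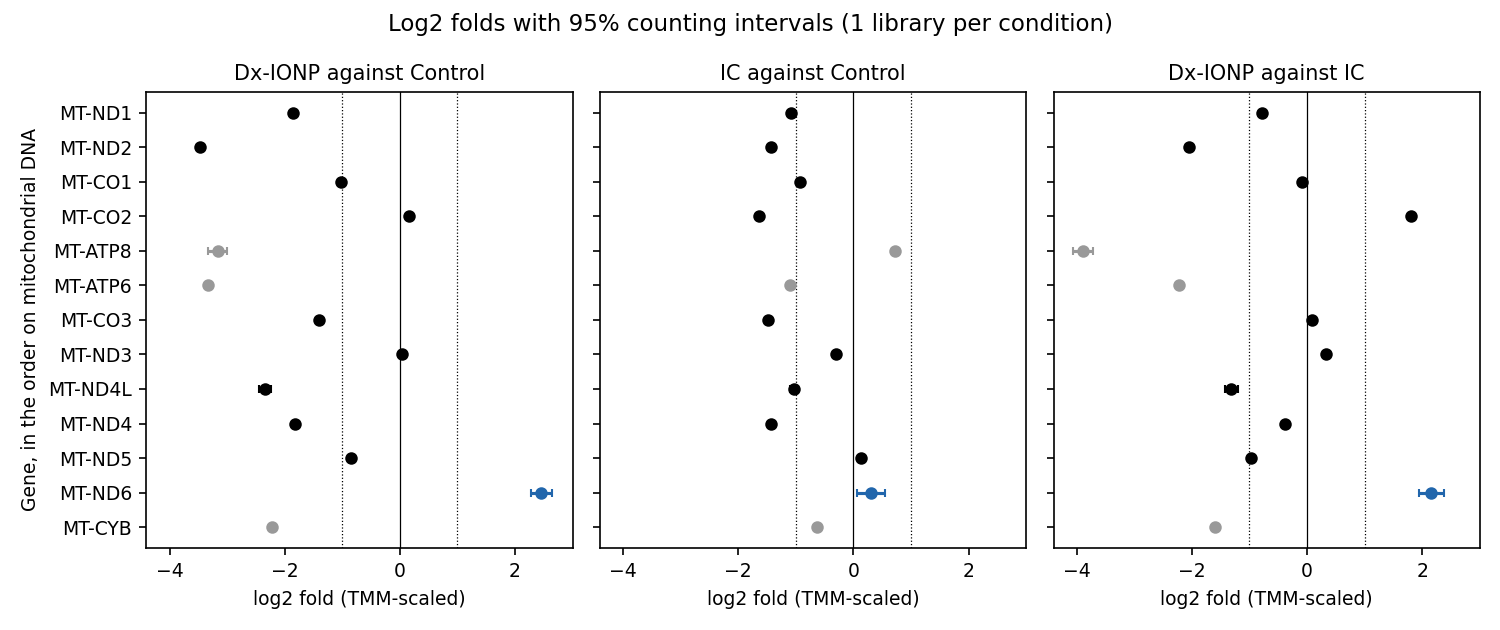
Log2 folds (TMM-scaled CPM) with 95% counting intervals in the 3 comparisons, for the 10 genes (black, MT-ND6 in blue) and the other 3 protein genes of mitochondrial DNA (grey), from top to bottom in gene order; dotted lines mark a 2-fold difference. MT-ND6 lies at 2.46 in Dx-IONP against Control while MT-ND2 lies at -3.48, and MT-CO2 lies at 0.16 beside its neighbour MT-ATP8 at -3.16.

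The last comparison placed the particle larvae beside the IC larvae. Here 2 of the 10 genes were called lower, 2 higher and 6 neither, with 26.5% of all kept genes called lower and 24.1% called higher, shares that lie near those of the 10 genes. At a 1.5-fold threshold, and likewise with total reads as the scale, MT-ND1 and MT-ND5 joined the genes called lower, against a background of 34.5% and 32.2% of kept genes. The called genes were MT-ND2 at a log2 fold of -2.05 (-2.11 to -2.001) and MT-ND4L at -1.31 (-1.43 to -1.20), both lower, and MT-CO2 at 1.81 (1.80 to 1.82) and MT-ND6 at 2.15 (1.95 to 2.37), both higher. MT-ND5 at -0.97 and MT-ND1 at -0.78 fell short of the threshold, as did MT-ND4 at -0.38 and MT-ND3 at 0.34. MT-CO1 at -0.09 and MT-CO3 at 0.08 were nearly equal in the libraries, and MT-CO3 turned to -0.22 when scaled to total reads.

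Because scaling between libraries moves all 10 genes together, MT-ND6 was also set against the other 9 within each library, where no scaling is needed. There were 1.44 MT-ND6 reads per 1000 reads of the other 9 genes in Dx-IONP (95% interval 1.35 to 1.53; lanes 1.40 to 1.52). IC had 0.469 per 1000 (0.412 to 0.533; lanes 0.422 to 0.514), and Control had 0.159 per 1000 (0.143 to 0.176; lanes 0.141 to 0.173). The order was Dx-IONP, IC, Control. The lanes of the 3 libraries did not overlap, but they are repeat readings and give no support for the order between pools. Lanes of MT-CO3 were also apart in Dx-IONP against IC, at a log2 fold of 0.08.

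Expressed as a difference between libraries, the MT-ND6 ratio was 9.06-fold higher in Dx-IONP than in Control (log2 difference 3.18, interval 3.001 to 3.36). It was 2.95-fold higher in IC than in Control (1.56, 1.32 to 1.80) and 3.07-fold higher in Dx-IONP than in IC (1.62, 1.41 to 1.82). The denominators differed too: the other 9 genes summed to 14129 CPM in Dx-IONP and 9696 CPM in IC, against 23167 CPM in Control. The denominator was thus lower in both Dx-IONP and IC than in Control, and higher in Dx-IONP than in IC.

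The size of the difference from Control depended on the partner gene in both libraries. Set against its neighbour MT-ND5 alone, MT-ND6 had 83.9 reads per 1000 in Dx-IONP and 9.57 in IC, against 8.44 in Control. The log2 difference was then 3.31 (3.13 to 3.49) for Dx-IONP against Control and 0.18 (-0.06 to 0.42) for IC against Control, the second an interval that includes equality. Against the neighbour on its other side, the cytochrome b gene MT-CYB, it had 65.6 reads per 1000 in Dx-IONP and 4.85 in IC, against 2.53 in Control, with log2 differences of 4.69 and 0.94 for Dx-IONP and IC against Control. Against the other 6 complex I genes the log2 differences were 4.16 and 1.33. The Dx-IONP library thus had the highest MT-ND6 ratio with each of these denominators.

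**Figure D3:**
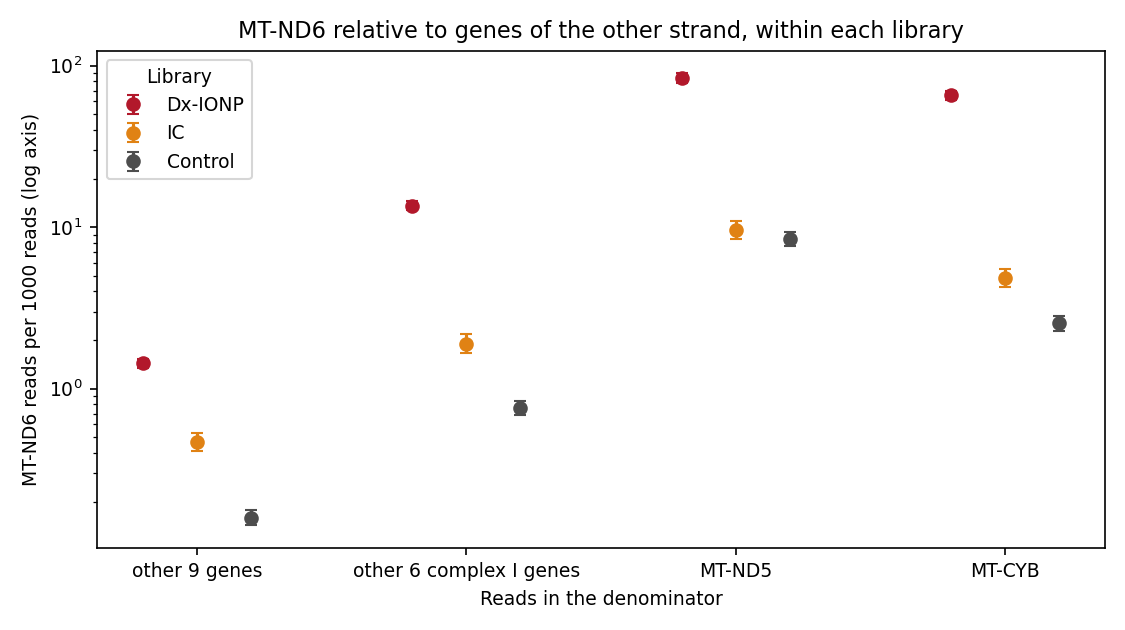
MT-ND6 reads per 1000 reads of 4 denominators (log axis) in the Dx-IONP, IC and Control libraries; points are libraries and bars are 95% counting intervals. Dx-IONP is highest with every denominator, and with MT-ND5 alone the intervals of IC (9.57) and Control (8.44) overlap.

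Nothing in the sources says if the deposited counts used strand. Without strand, reads from MT-ND6 cannot be told apart from reads of RNA made from the opposite strand at the same place, so MT-ND6 values are uncertain in that respect. Nuclear copies of mitochondrial DNA could also share reads with any of the 10 genes.

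Replication histone messages mostly end without a poly(A) tail, and the library was labelled as poly(A) RNA. A name pattern found 20 histone genes, and such a pattern can also take in histones made outside replication. In Dx-IONP against Control 16 of the 20 were called higher and 2 lower, with a median log2 fold of 10.01. All 16 were below 1 CPM in both IC and Control, so they passed the 1 CPM minimum only through Dx-IONP. Their call as higher was thus nearly fixed in advance, and the background share is no fair measure for it. In IC against Control 0 were called higher and 1 lower, with a median of -0.13. The same 16 genes had at most 51 reads in either of these libraries, so this comparison says little about them. Of all kept genes, 20.9% were called higher and 24.2% lower in Dx-IONP against Control. In IC against Control the shares were 14.1% and 15.1%. As an example, hist1h2a7, an H2A gene, had 19354 reads in Dx-IONP and 5 in IC, against 9 in Control. The list summed to 3708 CPM in Dx-IONP, 1713 CPM in IC and 1467 CPM in Control; it had no gene at 0 reads in Dx-IONP and 5 in IC, against 1 in Control. The summed histone list and MT-ND6 were thus both highest in the Dx-IONP library. The part of RNA without a poly(A) tail in the MT-ND6 value was not tested.

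The reads on the 10 genes also divided differently in each library. MT-CO2 took 53.4% of them in Dx-IONP (95% Clopper-Pearson interval 53.3 to 53.5), 22.2% in IC (22.1 to 22.4) and 29.2% in Control (29.1 to 29.2). MT-CO1 took 21.4% in Dx-IONP and 33.1% in IC, against 26.4% in Control. MT-CO3 took 14.5% in Dx-IONP and 20.0% in IC, against 23.5% in Control. In percentage points, MT-CO2 differed most between Dx-IONP and Control among the 10 genes.

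Within complex I, MT-ND2 took 0.514% of the reads in Dx-IONP and 3.11% in IC, against 3.499% in Control. MT-ND5 took 1.71% in Dx-IONP and 4.89% in IC, against 1.88% in Control, so that its share was highest in IC. MT-ND6 took 0.143% in Dx-IONP and 0.0468% in IC, against 0.0159% in Control. There were 8.30 complex IV reads for each complex I read in Dx-IONP and 3.05 in IC, against 3.78 in Control. In Dx-IONP against Control this ratio was 2.19-fold higher.

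**Figure D4:**
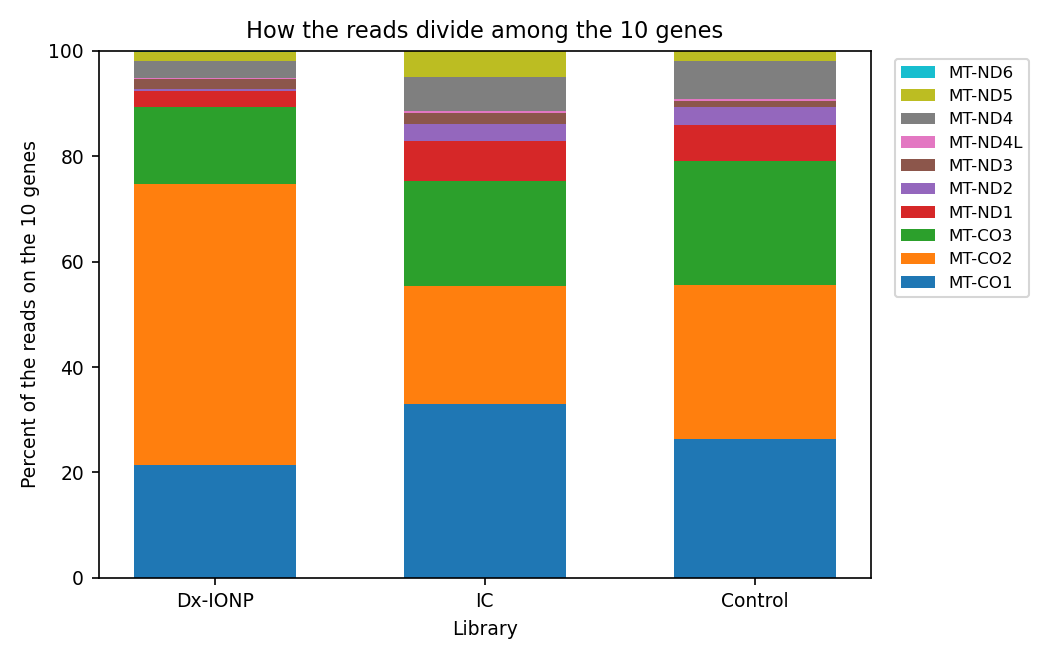
Percent of the reads on the 10 genes that each gene took, stacked for the Dx-IONP, IC and Control libraries (complex IV genes at the bottom). MT-CO2 holds 53.4% in Dx-IONP, against 22.2% in IC and 29.2% in Control.

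Genes that are neighbours on mitochondrial DNA did not keep a fixed ratio across libraries. MT-CO2 and MT-CO1 are adjacent protein genes, and there were 2.50 MT-CO2 reads per MT-CO1 read in Dx-IONP and 0.673 in IC, against 1.104 in Control. MT-ND2 and MT-ND1, also adjacent, had a ratio of 0.169 in Dx-IONP and 0.409 in IC, against 0.518 in Control. MT-ND5 to MT-ND4 was 0.505 in Dx-IONP and 0.760 in IC, against 0.258 in Control. In vertebrates MT-ND4L and MT-ND4 share a single message, and the ratio of MT-ND4L to MT-ND4 reads was 0.0374 in Dx-IONP (0.0349 to 0.0400), 0.0714 in IC (0.0685 to 0.0745) and 0.0538 in Control (0.0526 to 0.0550). Even this pair was 1.44-fold lower in Dx-IONP than in Control and 1.33-fold higher in IC than in Control. The other shared-message pair, MT-ATP8 and MT-ATP6, lay farther apart in IC against Control and closer in Dx-IONP against Control.

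Of the other protein genes of mitochondrial DNA, the complex V subunit genes MT-ATP8 and MT-ATP6 lie in this order between MT-CO2 and MT-CO3. MT-ATP6 codes for the subunit that forms part of the proton channel. The MT-ATP6 level was 160.2 CPM in Dx-IONP, against 749.5 in IC and 1615 in Control, a log2 fold of -3.33 (-3.37 to -3.30) in Dx-IONP against Control and -1.11 (-1.12 to -1.09) in IC against Control. MT-ATP8, a small complex V subunit gene whose message MT-ATP6 shares, was at 6.44 CPM in Dx-IONP, 95.7 CPM in IC and 57.8 CPM in Control. Its log2 fold was -3.16 in Dx-IONP against Control and 0.73 (0.67 to 0.78) in IC against Control, the second not called. The genes of this shared message thus lay on opposite sides of Control in IC, and counts of a single gene need not give the level of its message. MT-CYB, the complex III gene, was at 309.7 CPM in Dx-IONP, 937 CPM in IC and 1451 CPM in Control. All 3 were called lower in Dx-IONP against Control, 8.93-fold for MT-ATP8, the gene next to MT-CO2, and 10.1-fold for MT-ATP6. In IC against Control 1 of the 3 was called lower. Of all kept genes, 24.2% were called lower in Dx-IONP against Control and 15.1% in IC against Control.

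The nuclear genes of the same complexes were mostly not called in Dx-IONP and mostly lower in IC. Of 32 kept nuclear complex I genes, 1 was called lower and 2 higher in Dx-IONP against Control (median log2 fold -0.02). In IC against Control 24 were called lower and 1 higher (median -1.64). Of 19 nuclear complex IV genes, 5 were called lower and 1 higher in Dx-IONP against Control (median -0.57). In IC against Control 16 were called lower and 0 higher (median -1.74). Of all kept genes, 24.2% were called lower and 20.9% higher in Dx-IONP against Control, so 5 of 19 lies near the background. In IC against Control the shares were 15.1% and 14.1%. The 5 included low counts: a COX5B gene had 4 reads in Dx-IONP and 112 in Control, and a COX6A1 gene had 16 and 95. Cytosolic ribosomal protein genes, many of them short, were called lower for 57 of 67 in IC against Control (median -1.81) and higher for 11 and lower for 2 of 67 in Dx-IONP against Control (median 0.37). The part of short transcripts in the values above was not tested.

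Examples of nuclear complex I genes were NDUFS5, at 66.2 CPM in Dx-IONP and 18.2 CPM in Control (log2 fold 1.86), and NDUFS6, at 11.5 CPM in IC and 118 CPM in Control (-3.35). In complex IV, the isoform gene COX4I2 was at 6.32 CPM in Dx-IONP and 58.6 CPM in Control (-3.21). The small subunit gene cox7b was at 23.7 CPM in IC and 209 CPM in Control (-3.14).

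Reads on mitochondrial complex I genes per read on nuclear complex I genes were 0.618 in Dx-IONP and 1.72 in IC, against 2.16 in Control. This ratio needs no scaling, and it was 3.49-fold lower in Dx-IONP than in Control and 1.26-fold lower in IC than in Control. For complex IV the same ratio was 5.87 in Dx-IONP and 10.02 in IC, against 7.55 in Control. It was 1.29-fold lower in Dx-IONP than in Control and 1.33-fold higher in IC than in Control. The ratio thus lay farthest from Control for complex I in the Dx-IONP library.

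**Figure D5:**
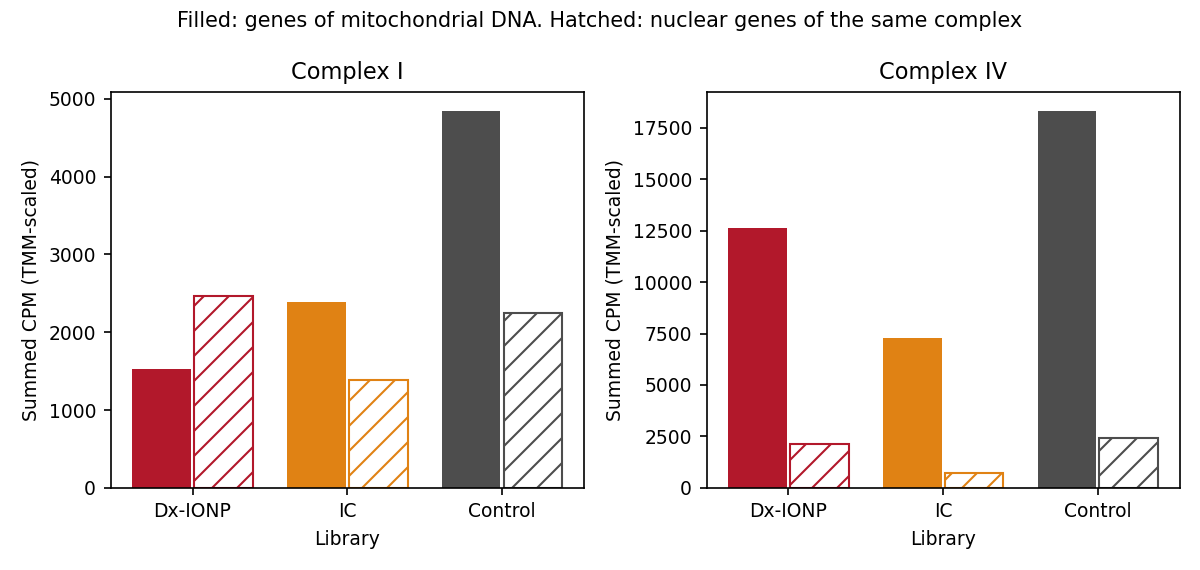
Summed CPM (TMM-scaled) of mitochondrially encoded genes (filled) and nuclear genes (hatched) of complex I and complex IV in the Dx-IONP, IC and Control libraries; sums are not per length, so filled and hatched bars are to be compared across libraries only. The filled complex I bar is 1521 in Dx-IONP against 4845 in Control, while the hatched bars are 2461 and 2243.

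Factors that copy, transcribe, cut and stabilise mitochondrial DNA and RNA differed little in Dx-IONP against Control. Of 32, 1 was called higher and 0 lower (median log2 fold 0.05), with a background of 20.9% higher and 24.2% lower. The one called was trmt10c, a subunit of the enzyme that cuts transfer RNAs out of mitochondrial RNA, at 12.1 CPM in Dx-IONP and 4.94 CPM in Control (1.29). POLRMT, the mitochondrial RNA polymerase, was at 13.0 CPM in Dx-IONP and 6.52 CPM in Control, a log2 fold that fell just short of a call. The DNA-packing transcription factor TFAM was at 23.2 CPM in Dx-IONP, 27.1 CPM in IC and 23.6 CPM in Control, and LRPPRC, which stabilises mitochondrial messages, was at 147 CPM in Dx-IONP, 133 CPM in IC and 139 CPM in Control. In IC against Control 11 of the 32 were called lower and 1 higher (median -0.52), with a background of 15.1% lower and 14.1% higher. The one higher was SSBP1, the mitochondrial single-strand DNA-binding protein, at 93.5 CPM in IC and 39.6 CPM in Control, while the nuclease gene MGME1 was lower, at 5.94 CPM in IC and 14.9 CPM in Control.

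Tissue markers differed between the libraries as well. For the marker counts below, the background in Dx-IONP against Control was 24.2% of all kept genes called lower and 20.9% higher. In IC against Control it was 15.1% and 14.1%. Neuron markers (6 genes) summed to 135 CPM in Dx-IONP, 2345 CPM in IC and 1890.0 CPM in Control, and all 6 were called lower in Dx-IONP and 1 in IC against Control. Photoreceptor markers (12 genes) summed to 45.9 CPM in Dx-IONP, 1237 CPM in IC and 3271 CPM in Control, with opn1sw2 at 0 reads in IC and Control; of 10 kept, 9 were called lower and 1 higher in Dx-IONP against Control, and 7 lower in IC against Control. Fast skeletal muscle markers (7 genes) summed to 72343 CPM in Dx-IONP, 74612 CPM in IC and 47245 CPM in Control. The gene pvalb1 alone made up 46964 CPM of this in Dx-IONP, 52393 CPM in IC and 25340 CPM in Control. Of the 7 muscle markers, 0 were called lower and 0 higher in Dx-IONP against Control. In IC against Control 1 was called lower and 1 higher, near the background shares. Heart muscle markers (13 genes) summed to 557 CPM in Dx-IONP, 514 CPM in IC and 656 CPM in Control. The actin gene actc1a alone made up 507 CPM of this in Dx-IONP, 361 CPM in IC and 530 CPM in Control. In Dx-IONP 2 of the 13, TNNT2 and 1 of the TNNI1 genes, were at 0. Of 12 kept, 7 were called lower and 1 higher in Dx-IONP against Control, and 4 lower and 2 higher in IC against Control.

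Ionocytes, which are rich in mitochondria, had 8 markers that summed to 443 CPM in Dx-IONP, 351 CPM in IC and 478 CPM in Control, and 2 ATP6V1A genes made up most of each sum in Dx-IONP, IC and Control. Of the 8, 4 were called higher and 0 lower in Dx-IONP against Control (median log2 fold 0.75), and 3 higher and 0 lower in IC against Control (median -0.07). Hepatocyte markers (5 genes) summed to 12445 CPM in Dx-IONP, 2978 CPM in IC and 17457 CPM in Control, nearly all of it from the apolipoprotein genes apoa1a and apoa2. Of the 5, 3 were called lower in Dx-IONP against Control (median -1.47) and 5 in IC against Control (median -2.31). The liver fatty acid-binding protein gene fabp10a was at 0.59 CPM in Dx-IONP and 65.8 CPM in IC, against 160.05 CPM in Control. Exocrine pancreas markers (8 genes) summed to 11.9 CPM in Dx-IONP, 22.5 CPM in IC and 167 CPM in Control, with all 8 called lower in both Dx-IONP and IC against Control. Erythroid markers (4 genes) summed to 3568 CPM in Dx-IONP, 536 CPM in IC and 1346 CPM in Control, with 3 called higher in Dx-IONP and 3 called lower in IC against Control. Epidermis markers (7 genes) summed to 117521 CPM in Dx-IONP, 34927 CPM in IC and 26946 CPM in Control. The keratin gene krt4 alone made up 97330 CPM of this in Dx-IONP, 25649 CPM in IC and 14904 CPM in Control. Of the 7 epidermis markers, 4 were called higher and 1 lower in Dx-IONP against Control, and 1 higher and 1 lower in IC against Control. The background was again 20.9% higher and 24.2% lower in Dx-IONP against Control. In IC against Control it was 14.1% and 15.1%, near the epidermis counts. The part of tissue content in the values of the mitochondrial genes was not tested.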

How the data were processed

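The table the authors deposited holds raw estimated counts for each gene in each lane, all whole numbers. Per the submitters' processing notes, the build was GRCz11 and the tools included Salmon 1.6.0, DESeq2 1.34.0, R 4.1.2 and FastQC. Salmon assigns shared reads by likelihood. The summing of transcripts to genes and any use of strand are not given in the sources used here. Columns were mapped to samples by library name. The 4 lanes of each library were summed, with 11847840 to 21329490 reads per lane. Scaling used TMM (edgeR 4.0.16, R 4.3.3) and log2 folds a prior count of 2; intervals were computed with scipy 1.17.1 in Python 3.11.15. With 1 library per condition no test was made. Functions were tested on simulated data. Gene symbols came from a name table, and gene order and synonyms from RefSeq (GRCz12tu, used for names and order only). The genes, lists and call rule were chosen with earlier results of these data known. Every one of the 10 genes is named. From each list, up to 3 called genes with the largest log2 folds at 10 CPM or more could be named per comparison with Control. Others (TFAM, LRPPRC, POLRMT, ATP6V1A, opn1sw2, TNNT2, TNNI1, actc1a) were chosen after their values were seen. Alternatives were DESeq2 1.42.0 size factors, total reads, TMM without mitochondrially encoded genes, other filters, thresholds and prior counts, other denominators, and leaving out each lane.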

Additional observations from a re-analysis of the deposited data

Results flagged for a closer look

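In 3 of 30 sets of 4 lanes (10 genes in 3 libraries) 1 lane lay far from the other lanes of the same library, where chance gives about 1 in 20. All 3 were in Dx-IONP. MT-CO2 was at 7499.85 CPM in lane 4, against 7566 to 7577 CPM in the other lanes. MT-CO3 was at 2058 CPM in lane 4, against 2048 to 2049 CPM. MT-ND5 was at 249 CPM in lane 1, against 239 to 240.1 CPM. These gaps are small beside the differences between libraries.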

How the results depend on the processing

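With 1 library per condition nothing here measures the spread between pools of larvae, and lanes show technical spread only. No paired analysis was possible because the shared numbers are lanes of 1 library and no test was made. The shallowest value, MT-ND6 in IC, rests on 231 reads. Leaving out each lane gave 6 genes lower in Dx-IONP against Control and in IC against Control, and 2 in Dx-IONP against IC, as with all lanes. The background of kept genes called lower was then 24.1% to 24.3%, 15% to 15.2% and 26.4% to 26.6% in these comparisons. The MT-ND6 log2 difference was then 3.13 to 3.24, 1.505 to 1.64 and 1.57 to 1.68 in these comparisons. In Dx-IONP against IC, 4 genes were lower with total reads as the scale (background 32.2%), and 4 at a 1.5-fold threshold (34.5%). Other denominators moved the MT-ND6 log2 difference in Dx-IONP against Control to 3.86 (median of the other 9), 4.69 (MT-CYB) and 4.16 (other 6 complex I genes). In IC against Control it moved to 0.18 (MT-ND5) and 0.94 (MT-CYB). In Dx-IONP against IC it moved to 2.53 (median), 3.13 (MT-ND5), 3.76 (MT-CYB) and 2.83 (other complex I genes). Of 300 log2 folds of single genes under alternatives, 256 lay within the main counting interval, 44 lay outside it, and 3 changed sign, all with total reads and none of them called. With DESeq2 size factors 5 genes were lower in IC against Control (background 14.5% of kept genes), and with total reads 7 (16.8%). Total reads also gave 7 lower in Dx-IONP against Control (background 31.7%). At a 1.5-fold threshold 7 were lower in Dx-IONP against Control (32.6%) and 7 in IC against Control (27.4%).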

Other observations

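Of 11 kept genes that regulate how much mitochondrial machinery nuclear genes make, 3 were called lower and 2 higher in Dx-IONP against Control. These shares lie near the background of 24.2% of all kept genes called lower and 20.9% called higher. In IC against Control 0 were called lower, 2 higher (YY1 and esrrb) and 9 neither, with a median log2 fold of 0.15. The background there was 15.1% lower and 14.1% higher. The orphan receptor gene ESRRG was at 3.62 CPM in Dx-IONP and 27.1 CPM in Control, whereas its relative ESRRA was at 25.7 CPM in Dx-IONP and 9.30 CPM in Control. YY1, a transcription factor gene, was at 10.4 CPM in Dx-IONP, 99.3 CPM in IC and 42.5 CPM in Control, and esrrb was at 14.3 CPM in IC and 5.79 CPM in Control.

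Among 11647 genes with at least 10 CPM in some library, the closest to MT-ND6 by their log2 folds of Dx-IONP and IC against Control were TYR, the pigment enzyme gene, LYPD6B, cyld2, cax1 and CDCP1. TYR was at 2.39 and 0.34, where MT-ND6 was at 2.46 and 0.30. The likeness is the distance over these log2 folds from 3 libraries, and 27 genes lay within 0.25. For the median of the other 9 genes (-1.41 and -1.08), the closest were crygm2d21, NKX1-1, parn, UBE2K and si:dkey-10p5.10, and 65 genes lay within 0.25.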
